A study of Homo sapiens with 3 samples.

Results

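The 10 transcripts described here are long noncoding RNAs whose introns hold small nucleolar RNAs (snoRNAs): GAS5, SNHG1, SNHG5, SNHG6, SNHG7, SNHG8, SNHG12, SNHG15, SNHG16 and ZFAS1. They were taken by name from the deposited gene tables, and all 10 are among the 11787 genes with a mean of at least 1 FPKM (fragments mapped per kilobase of transcript, relative to library size) over 3 libraries. RNA came from PLC, an established human hepatocellular carcinoma line grown in DMEM with serum, harvested 48 hours after infection with hairpin-carrying virus. Each group is 1 library: control cells that received a non-targeting hairpin (NTC), cells with hairpins against DIS3L2 (shDIS3L2) and cells with hairpins against hnRNP U (shHNRNPU). The sources used here do not say how many hairpins went to each target or whether they were pooled. Single libraries allow no test between conditions, and each deposited interval, taken as 95%, covers the estimate within a library only.

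A snoRNA host gene yields more than a spliced RNA. Its introns are trimmed to snoRNAs, and its joined exons leave the nucleus as a short-lived RNA. Box C/D snoRNAs guide 2′-O-methylation of ribosomal RNA, and box H/ACA snoRNAs guide pseudouridylation. Most noncoding hosts start at a run of pyrimidines like that of ribosomal protein genes (a 5′ terminal oligopyrimidine, or TOP, start), carry only short reading frames, and are known substrates of nonsense-mediated decay (NMD), the pathway that removes mRNAs with an early stop. DIS3L2 is a cytoplasmic 3′ to 5′ exonuclease that prefers RNA with an added uridine tail, and hnRNP U is a nuclear RNA-binding protein that acts in splicing and chromatin organisation. FPKM is a steady level, so decay itself was not measured, and the tables cannot tell slower decay from more transcription.

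The host role was checked on RefSeq coordinates (GRCh38.p14), without regard to strand. All 10 genes held at least 1 snoRNA. SNHG1 held 8, ZFAS1 and SNHG16 held 3 each, SNHG5 held 2 and SNHG6 held 1, and these were box C/D snoRNAs only. SNHG7 held 2 and SNHG8 and SNHG15 held 1 each, all of the H/ACA class. GAS5 held 10 C/D snoRNAs and 1 H/ACA snoRNA, and SNHG12 held 1 C/D and 3 H/ACA snoRNAs. The sequences below, from GENCODE 29 transcripts on GRCh38, show what separates the classes. In the C/D snoRNAs the capitals mark the core of the C box near the 5′ end and the D box near the 3′ end. In the H/ACA snoRNAs they mark the ACA trinucleotide just before the 3′ end.
SNORD25 in SNHG1 (chr11:62855564-62855632, - strand): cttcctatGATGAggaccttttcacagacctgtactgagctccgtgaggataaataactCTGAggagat
SNORD50B in SNHG5 (chr6:85677589-85677658, - strand): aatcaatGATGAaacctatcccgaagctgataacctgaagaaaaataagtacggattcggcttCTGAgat
SNORD12C in ZFAS1 (chr20:49278940-49279028, + strand): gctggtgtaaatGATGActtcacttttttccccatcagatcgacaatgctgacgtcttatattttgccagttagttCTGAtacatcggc
SNORA17A in SNHG7 (chr9:136726747-136726879, - strand): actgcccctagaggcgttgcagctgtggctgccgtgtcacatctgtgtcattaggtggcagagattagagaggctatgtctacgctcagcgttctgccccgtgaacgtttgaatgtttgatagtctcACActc
SNORA24 in SNHG8 (chr4:118279190-118279320, + strand): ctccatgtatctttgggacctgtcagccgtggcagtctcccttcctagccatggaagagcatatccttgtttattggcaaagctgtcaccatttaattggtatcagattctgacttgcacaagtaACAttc
SNORA9 in SNHG15 (chr7:44985378-44985510, - strand): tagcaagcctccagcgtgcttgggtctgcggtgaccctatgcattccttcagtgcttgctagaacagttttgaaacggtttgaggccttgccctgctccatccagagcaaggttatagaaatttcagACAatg

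RefSeq start-site windows on GRCh38.p14 were matched for 8 of the 10 genes. The stretch from 30 bases before to 30 bases after the annotated start is printed for 5 of them. Capitals mark the longest run of C or T that covered or touched the 20 bases around the start.
SNHG12 start (chr1:28581844-28581903, - strand): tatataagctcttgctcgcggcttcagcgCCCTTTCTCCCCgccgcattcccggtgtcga
SNHG7 start (chr9:136728155-136728214, - strand): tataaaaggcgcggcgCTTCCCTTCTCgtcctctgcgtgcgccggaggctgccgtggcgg
ZFAS1 start (chr20:49278612-49278671, + strand): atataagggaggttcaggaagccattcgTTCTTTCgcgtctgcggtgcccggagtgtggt
SNHG5 start (chr6:85678704-85678763, - strand): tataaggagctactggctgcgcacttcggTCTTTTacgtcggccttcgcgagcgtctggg
GAS5 start (chr1:173869016-173869075, - strand): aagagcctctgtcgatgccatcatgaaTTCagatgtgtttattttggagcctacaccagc
Runs were 12 bases in SNHG12, 11 in SNHG7, 8 in SNHG16, 7 in SNHG1 and ZFAS1, 6 in SNHG5 and SNHG8, and 3 in GAS5. Those of SNHG7 and GAS5 began at positions -14 and -3 from the annotated start and ended before it. Those of SNHG1 and SNHG16 began after it, at positions 4 and 3. A run length alone therefore does not show a TOP start. The starts used for SNHG12 (28581873) and ZFAS1 (49278642) lie inside the RefSeq genes, whose 5′ ends are at 28582983 and 49278178. Each gene was read at 1 annotated start, and runs at other starts, of GAS5 or any other host, were not tested. The median run was 7 bases, against 4 over all 35116 RefSeq windows, of which 4.48% had a run at least as long as that of SNHG12. TATAA, the core of a TATA box, stood on the coding strand within the 50 bases before the start in 5 of the 8 (SNHG5, SNHG7, SNHG8, SNHG12 and ZFAS1), a search added after the sequences were seen. It stood there in 4.74% of all windows. Searched on both strands over 300 bases, CACGTG was in 1 of 8 (7.26% of all windows), TATAAA in 2 (11.5%) and CCGGAAG in 0 (10.3%). A TATAAA match also holds TATAA. These are matches of letters, not sites of binding.

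Both targets were lower in their own knockdown. DIS3L2 had 7.61 FPKM in control (6.70 to 8.53), 3.23 in shDIS3L2 (2.31 to 4.15) and 11.2 in shHNRNPU (10.04 to 12.4). HNRNPU had 178 (172 to 184), 232 (224 to 241) and 33.5 (31.8 to 35.2). Each locus was deposited merged with a second name, AC068134.10 and HNRNPU-AS1. The 9 hepatoma markers were at 1 FPKM or more in all libraries except for ALB, at 0.856 FPKM in shDIS3L2. Their median log2 ratio was -0.97 in shDIS3L2 and -0.77 in shHNRNPU against control, but they did not move alike. With a log2 ratio past 1 or -1 and intervals apart, 4 fell and FGB rose (1.39) in shDIS3L2, beside 7.58% and 8.95% of all genes. In shHNRNPU 3 fell and 0 rose, beside 7.46% and 8.32%. KRT8 and KRT18 had log2 ratios of -0.36 and -0.34 in shDIS3L2. Of 9 markers of blood, endothelial and fibroblast cells, 7 stood at loci of their own and summed to 0.272, 0.359 and 1.23 FPKM in control, shDIS3L2 and shHNRNPU. Their part in the results on the hosts was not tested. In bulk samples, fewer cells of a type and less RNA per cell cannot be told apart. Mitochondrial genes have 0 entries in the control table, 11 in shDIS3L2 and 10 in shHNRNPU, and what this does to the scaling of FPKM was not tested.

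Against control, the host transcripts were mostly more abundant in shDIS3L2. The deposited intervals of shDIS3L2 lay above those of control for 7 of the 10 (GAS5, SNHG1, SNHG5, SNHG6, SNHG8, SNHG16 and ZFAS1), below for 1 (SNHG7), and overlapped for 2 (SNHG12 and SNHG15). Over all tested genes, intervals lay above for 32.7% and below for 25.3%. A size rule was also used: a log2(FPKM + 1) ratio of at least 1 or at most -1 with intervals apart. By that rule 1 of the 10, SNHG6, rose and 0 fell, beside 8.95% and 7.58% of all genes, so the count past the rule is near the background. The median log2 ratio of the 10 was 0.70, against 0.09 over all genes. With FPKM rescaled to the same sum in every library these medians were 0.04 and -0.48. Members with FPKM of this size have narrow intervals: among the 6393 genes with a mean of at least 10 FPKM, 39.3% lay above and 31.5% below.

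In shHNRNPU against control the hosts lay on both sides. Intervals lay above control for 4 (SNHG1, SNHG5, SNHG15 and ZFAS1), below for 3 (SNHG7, SNHG8 and SNHG12) and overlapped for 3 (GAS5, SNHG6 and SNHG16), beside 34.9% above and 23.4% below over all genes. By the size rule 0 rose and 1, SNHG8, fell, beside 8.32% and 7.46% of all genes. The median log2 ratio of the 10 was 0.14, against 0.12 over all genes. Both comparisons share the control library. Between the knockdowns, always given as shHNRNPU against shDIS3L2, shHNRNPU had 8 of 10 intervals below and 0 above (28.4% and 31.8% of all genes), with a median log2 ratio of -0.57 against 0.03. By the size rule 0 rose and 2, SNHG6 and SNHG8, fell, beside 10.2% and 10.5% of all genes.

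**Figure D1:**
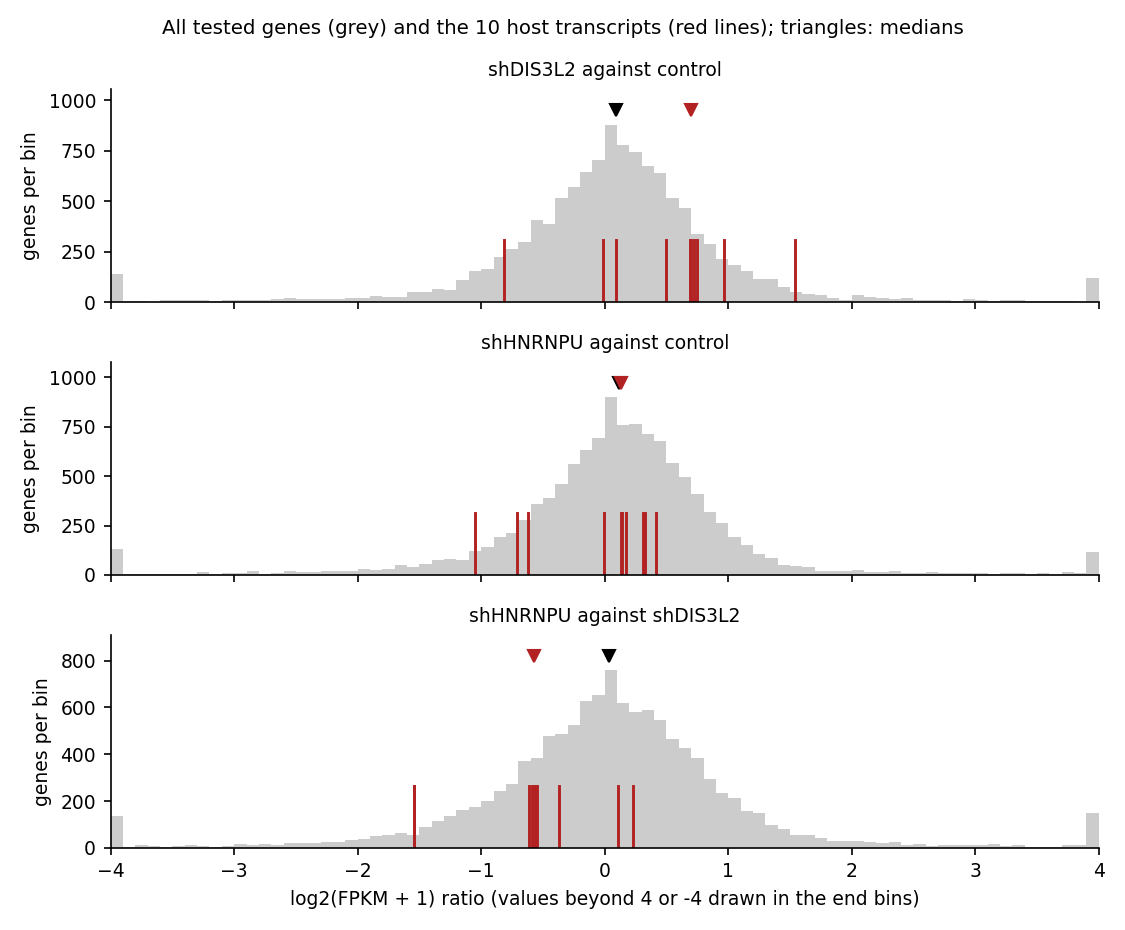
Number of genes per bin of 0.1 in log2(FPKM + 1) ratio for the 11787 tested genes (grey), with the 10 host transcripts as red lines and the medians of all genes (black) and of the hosts (red) as triangles, for each pair of libraries. The hosts' median is at 0.70 in shDIS3L2 against control, at 0.14 in shHNRNPU against control and at -0.57 between the knockdowns.

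Levels of the 10 spanned a wide range within each library. FPKM are scaled by length, but the deposited loci are not all alike. SNHG6 is merged with SNORD87, ZFAS1 in control with SNORD12, and the locus of SNHG5 spans 17742 bases. What this does to the order of the genes was not tested. In control the levels ran from 19.5 FPKM (SNHG12) to 466 FPKM (SNHG7), with a median of 133. The order from the top was SNHG7, ZFAS1, SNHG5, SNHG6, GAS5, SNHG1, SNHG8, SNHG15, SNHG16 and SNHG12. Of the 9 neighbouring pairs in that order, 4 had overlapping intervals: ZFAS1 with SNHG5, SNHG5 with SNHG6, SNHG1 with SNHG8, and SNHG16 with SNHG12. In shDIS3L2 they ran from 19.4 to 785 FPKM and SNHG6 stood first, in place of the fourth position it had in control, while SNHG7, first in control, stood below GAS5. Neighbours overlapped there in 2 pairs (SNHG5 with ZFAS1 and GAS5 with SNHG7). In shHNRNPU they ran from 12.3 to 364 FPKM, SNHG5 stood first, and neighbours overlapped in 2 pairs (SNHG5 with ZFAS1 and SNHG7 with SNHG6). SNHG8 was below SNHG15 in shHNRNPU only, among these 3 libraries. The 10 summed to 1748 FPKM in control, 2752 in shDIS3L2 and 1699 in shHNRNPU, ratios of 1.57 and 0.972 to control. Without SNHG6 the ratios were 1.33 and 0.967.

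**Figure D2:**
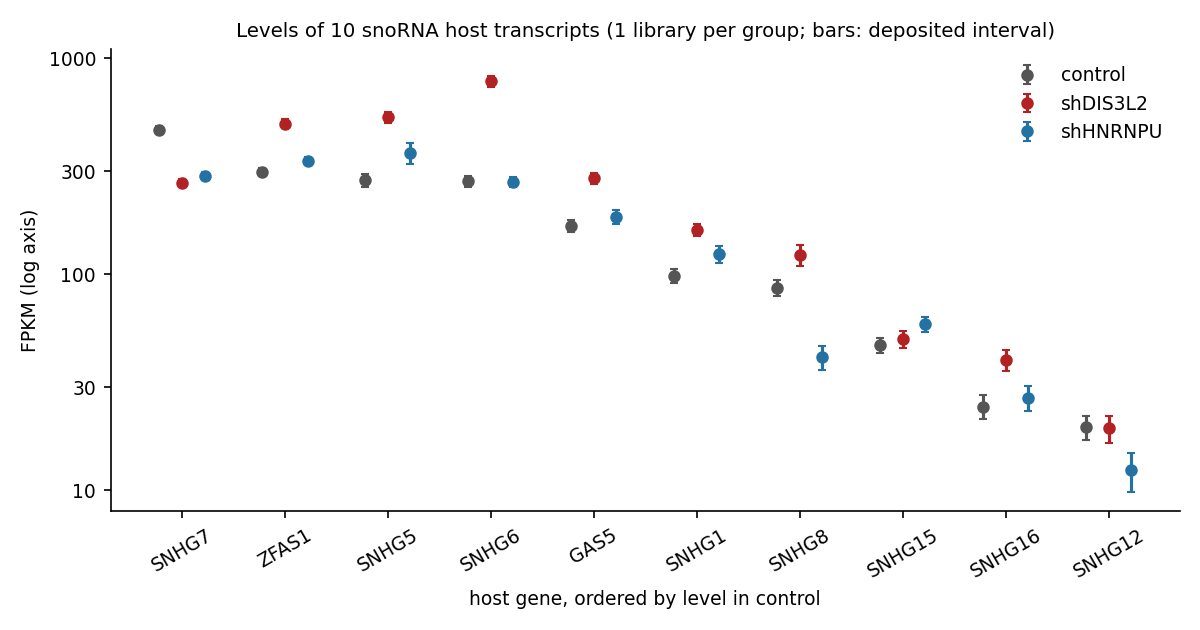
FPKM on a log axis for the 10 host transcripts, ordered by their level in control, with the deposited interval as a bar and 1 point per library (control grey, shDIS3L2 red, shHNRNPU blue). SNHG6 at 785 FPKM in shDIS3L2 is the highest point, and SNHG7 is the host whose control interval lies above both knockdowns.

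Hosts of C/D snoRNAs come first. SNHG6, the host of SNORD87 on chromosome 8, was deposited in all 3 libraries as 1 locus under both names, so reads of host and snoRNA cannot be told apart. It had 269 FPKM in control (253 to 285), 785 in shDIS3L2 (739 to 831) and 268 in shHNRNPU (254 to 283). Control and shHNRNPU overlapped, and shDIS3L2 lay far above both. The ratio was 2.92 in shDIS3L2 (2.60 to 3.28 from the interval bounds), a log2 ratio of 1.54 that 474 of the 11787 genes exceeded, and 0.998 in shHNRNPU (0.891 to 1.12). With FPKM rescaled to the same sum in every library, the log2 ratio in shDIS3L2 was 0.87 and no longer past the rule.

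SNHG5 hosts the U50 snoRNAs SNORD50A and SNORD50B (chr6:86370710-86388451, hg19). Its deposited locus spans 17742 bases, longer than the RefSeq gene (chr6:85677007-85678733, GRCh38.p14). Whether reads from outside that gene add to its FPKM was not tested. SNHG5 had 273 FPKM in control (254 to 291), 534 in shDIS3L2 (501 to 566) and 364 in shHNRNPU (324 to 404). The 3 intervals were apart, with control lowest and shDIS3L2 highest. The ratios were 1.96 (1.72 to 2.23) and 1.34 (1.11 to 1.59), and the log2 ratio of 0.97 in shDIS3L2 stood just under the size rule.

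ZFAS1 lies beside the start of ZNFX1 and hosts the SNORD12 group (chr20:47894715-47905797, hg19). In control its locus also carried the name SNORD12, in the knockdowns it did not. It had 297 FPKM in control (285 to 309), 498 in shDIS3L2 (475 to 521) and 334 in shHNRNPU (320 to 347). No intervals overlapped, in the same order of libraries as for SNHG5. The ratios were 1.68 (1.54 to 1.83) and 1.13 (1.04 to 1.22). ZNFX1, which overlaps ZFAS1 by 249 bases, was listed at 0 in control and shHNRNPU and at 11.5 FPKM in shDIS3L2.

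SNHG1 holds 8 C/D snoRNAs from SNORD25 to SNORD22 (chr11:62619460-62623386, hg19). It had 98.4 FPKM in control (90.8 to 106), 161 in shDIS3L2 (150 to 171) and 124 in shHNRNPU (113 to 135). All 3 intervals were apart, control lowest and shDIS3L2 highest. Ratios to control were 1.63 (1.42 to 1.89) and 1.26 (1.06 to 1.49). SLC3A2, the amino acid transporter heavy chain CD98, starts 131 bases away and stood at 267, 551 and 392 FPKM in control, shDIS3L2 and shHNRNPU. Its log2 ratios of 1.04 and 0.55 were above those of SNHG1, 0.70 and 0.33, and it rose by the size rule in shDIS3L2.

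SNHG16 hosts SNORD1A, SNORD1B and SNORD1C (chr17:74553848-74561430, hg19). It had 24.4 FPKM in control (21.2 to 27.5), 39.98 in shDIS3L2 (35.6 to 44.4) and 26.8 in shHNRNPU (23.3 to 30.3). Control and shHNRNPU overlapped, with shDIS3L2 above both. Ratios were 1.64 (1.29 to 2.09) and 1.10 (0.847 to 1.42). It shares 1639 bases with ST6GALNAC2, a sialyltransferase gene, which had 11.1, 24.0 and 12.2 FPKM in the same order and rose by a log2 ratio of 1.04 in shDIS3L2. The kit is not described as stranded, so reads in the shared bases cannot be assigned by strand.

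GAS5 (growth arrest specific 5), whose spliced RNA is known to bind the glucocorticoid receptor, holds snoRNAs of both classes, nearly all C/D (chr1:173833038-173838020, hg19). It had 168 FPKM in control (156 to 179), 278 in shDIS3L2 (262 to 295) and 185 in shHNRNPU (171 to 199). Again control and shHNRNPU overlapped while shDIS3L2 lay above. The ratios were 1.66 (1.46 to 1.88) and 1.10 (0.954 to 1.27). ZBTB37, which overlaps GAS5 by 801 bases, was at 0.128, 0.169 and 0.261 FPKM, and GAS5-AS1 was listed at 0 in all 3.

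SNHG12, the other gene with both classes, was the least abundant of the 10 in every library (chr1:28905050-28909495, hg19). It had 19.5 FPKM in control (17.1 to 22.0), 19.4 in shDIS3L2 (16.6 to 22.1) and 12.3 in shHNRNPU (9.79 to 14.9). Here shHNRNPU lay below, and control and shDIS3L2 overlapped. Ratios were 0.992 (0.755 to 1.30) and 0.632 (0.446 to 0.873), and the log2 ratio in shHNRNPU, -0.62, became -1.35 and past the rule when rescaled to a common sum. Under that scaling 27.8% of all genes fell in shHNRNPU, with an all-gene median of -0.66. Next to SNHG12 lies TRNAU1AP, a selenocysteine tRNA-associated protein gene, at 54.6 FPKM in control, 56.5 in shDIS3L2 and 3.60 in shHNRNPU. Its deposited locus shares 2 bases with SNHG12 in control and shDIS3L2 but 1112 bases in shHNRNPU. The part of this difference in gene bounds in either value was not tested.

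Among hosts of H/ACA snoRNAs alone, SNHG7 hosts the SNORA17 pair (chr9:139615818-139622636 in control, hg19). It had 466 FPKM in control (448 to 485), 264 in shDIS3L2 (253 to 276) and 285 in shHNRNPU (272 to 297). Both knockdowns lay below control and overlapped each other. Ratios were 0.567 (0.521 to 0.617) and 0.610 (0.562 to 0.663), log2 ratios of -0.82 and -0.71 that stayed inside the size rule. Rescaled to a common sum they were -1.48 and -1.62, both past it. Under that scaling 20% of all genes fell in shDIS3L2 and 27.8% in shHNRNPU, and the all-gene medians were -0.48 and -0.66. FAM69B, which shares 2685 bases with SNHG7, had 46.1, 33.1 and 48.5 FPKM, and its log2 ratios were -0.47 and 0.07.

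SNHG8 hosts SNORA24 in a gene of 1115 bases, the shortest of the 10 (chr4:119199864-119200978, hg19). It had 86.7 FPKM in control (79.4 to 93.9), 123 in shDIS3L2 (109 to 136) and 41.4 in shHNRNPU (36.2 to 46.7). The 3 intervals were apart, with shHNRNPU lowest and shDIS3L2 highest. Ratios were 1.42 (1.16 to 1.72) and 0.478 (0.385 to 0.588). The log2 ratio of -1.05 in shHNRNPU passed the size rule, while a pseudocount of 5 brought it to -0.98, inside the rule.

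SNHG15 hosts SNORA9 (chr7:45022622-45026560, hg19). It had 47.0 FPKM in control (43.1 to 50.8), 49.99 in shDIS3L2 (45.6 to 54.4) and 58.6 in shHNRNPU (54.0 to 63.3). Control and shDIS3L2 overlapped, shDIS3L2 and shHNRNPU overlapped, and shHNRNPU lay above control. Ratios were 1.06 (0.898 to 1.26) and 1.25 (1.06 to 1.47).

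Grouped by the class of snoRNA inside, a grouping made after the values were seen and so given as a description, the 5 hosts of C/D snoRNAs alone had ratios of 1.63 to 2.92 in shDIS3L2, all 5 with intervals above control. The 3 hosts of H/ACA snoRNAs alone had ratios of 0.567 to 1.42, with 1 interval above, 1 below and 1 overlapping. Over all genes, intervals in shDIS3L2 lay above control for 32.7% and below for 25.3%. Among genes with a mean of at least 10 FPKM these shares were 39.3% and 31.5%. In shHNRNPU the C/D hosts had ratios of 0.998 to 1.34 and the H/ACA hosts 0.478 to 1.25. Other hosts, above 0 in every library, were taken from a list of noncoding and protein-coding host genes. In shDIS3L2 the order of the classes was not the same there: the median log2 ratio was 0.20 over 19 other C/D hosts and 0.38 over 14 other H/ACA hosts. Intervals in shDIS3L2 lay above control for 12 of the 19 and below for 2. They lay above for 7 of the 14 and below for 5. Of the 19, 18 are protein-coding and 1 is noncoding, and of the 14, 9 are protein-coding and 5 noncoding. The classes therefore differ in host type as well. In control, SNHG14, RPL4, RPL13A, RPS13 and PPAN, among the 19, were deposited merged with other genes. So were SNHG3 and RPS2, among the 14, and further loci carried snoRNA names. In shHNRNPU the order was the same, with medians of 0.02 and -0.19 in the other hosts and 0.17 and -0.71 in the C/D and H/ACA hosts among the 10. Of these other hosts, 0 passed the size rule in either knockdown against control. By that rule 8.95% of all genes rose and 7.58% fell in shDIS3L2, and 8.32% and 7.46% in shHNRNPU.

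**Figure D3:**
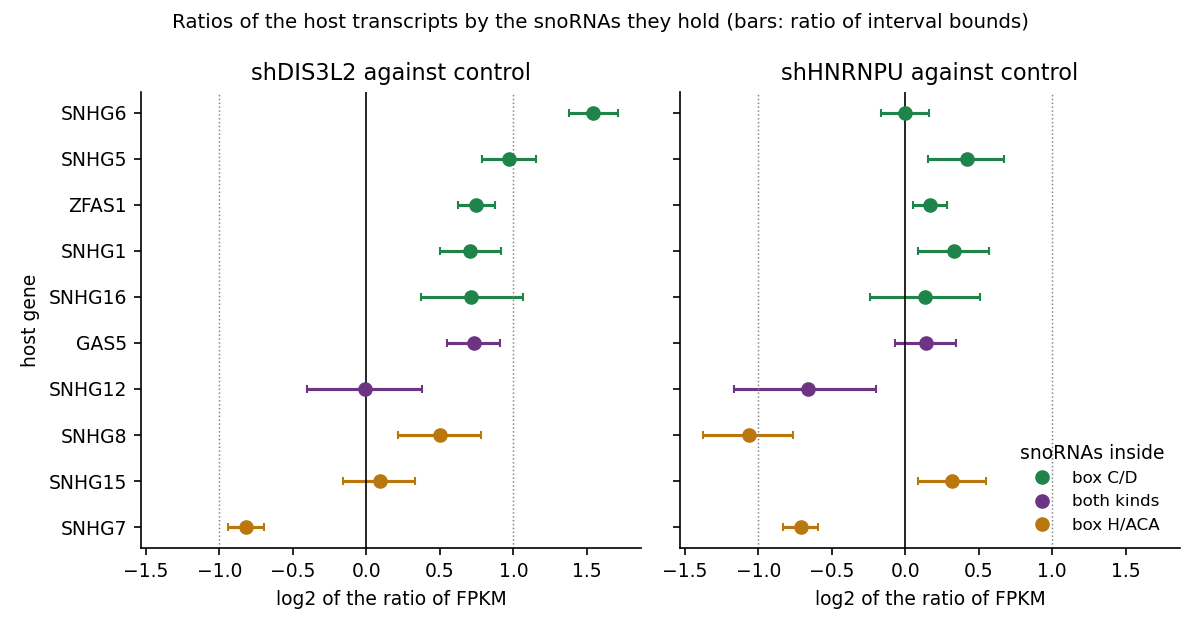
Log2 ratio of FPKM to control for each host transcript in shDIS3L2 (left) and shHNRNPU (right), with bars from the ratios of the interval bounds, coloured by the class of snoRNA inside, and dotted lines at 1 and -1. The 5 C/D hosts lie at ratios of 1.63 to 2.92 in shDIS3L2, and SNHG8 is the host farthest to the left in shHNRNPU.

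The snoRNAs themselves were hardly visible in these tables. Inside the hosts, 17 entries with a snoRNA name stood as loci of their own over the 3 libraries (SNORD78 in GAS5, SNORD99 in SNHG12, SNORD1B in SNHG16, and SNORD12, SNORD12B and SNORD12C in ZFAS1). All 17 were listed at 0 FPKM. An entry at 0 can be a failed estimate, and no statement on snoRNA levels is made. Of the 10 hosts, 5 overlapped no other locus above 0 FPKM (SNHG1, SNHG5, SNHG6, SNHG8 and SNHG15).

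Other genes of the same pathways were read beside the hosts. Of 6 other noncoding hosts above 0 in every library, 0 passed the size rule in either knockdown against control. Over all genes 8.95% rose and 7.58% fell in shDIS3L2, and 8.32% and 7.46% in shHNRNPU. A count of 0 in 6 is near that background. With SNHG9, listed at 0 in control, 7 were measured and 1 rose in each knockdown. The median log2 ratios of the 6 were 0.37 in shDIS3L2 and 0.25 in shHNRNPU. SNHG17, a host of H/ACA snoRNAs, came nearest in shDIS3L2, with 208, 404 and 306 FPKM and log2 ratios of 0.95 and 0.55. It was named after its values were seen, as was DANCR, an H/ACA host at a log2 ratio of -0.63 in shDIS3L2. The locus of SNHG3 was deposited merged with RCC1, a protein-coding gene, and its log2 ratio of -0.67 cannot be assigned to either. SNHG14, also among the 6, was merged in control with SNRPN, SNURF and RP11-701H24.10, and its values cannot be assigned to SNHG14 alone. Of 35 protein-coding hosts, mostly ribosomal protein and translation factor genes, 0 passed in shDIS3L2 and 1 rose in shHNRNPU, where 8.32% of all genes rose. That gene was EIF4A2, a translation initiation helicase deposited merged with its snoRNAs, at 48.4, 87.9 and 99.8 FPKM with a log2 ratio of 1.03 in shHNRNPU. The medians were 0.24 and -0.15. By intervals, 23 of the 35 lay above control in shDIS3L2 and 5 below, beside 32.7% and 25.3% of all genes. In shHNRNPU 10 lay above and 18 below, beside 34.9% and 23.4%. RPL10 and RPS2, the most abundant of these hosts, had log2 ratios of -0.11 and -0.44 in shDIS3L2.

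Ribosomal protein genes have the TOP start described above for most noncoding hosts, and 54 of them that are not on the host lists were measured. In shDIS3L2, 2 rose and 0 fell by the size rule, beside 8.95% and 7.58% of all genes, a share below the background. These were RPLP2, of the ribosomal stalk and merged with SNORA52, at 1505 FPKM in control and 3306 in shDIS3L2, and RPL22, at 449 and 934. In shHNRNPU, 0 rose and 1 fell, beside 8.32% and 7.46%: RPS27A, which encodes a ubiquitin fusion, at 1545 FPKM in control and 728 in shHNRNPU. The median log2 ratios of the 54 were 0.19 and -0.22, against 0.70 and 0.14 for the 10 hosts and 0.09 and 0.12 for all genes. By intervals, 35 of the 54 lay above control in shDIS3L2 and 3 below, beside 32.7% and 25.3% of all genes. In shHNRNPU 5 lay above and 36 below, beside 34.9% and 23.4%. Intervals above control in shDIS3L2 were thus not particular to the 10 hosts.

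Coding mRNAs that NMD is known to remove had the highest median of the lists in shDIS3L2, 0.90 over 11 genes. In shDIS3L2, 5 of the 11 rose and 0 fell, beside 8.95% and 7.58% of all genes: ATF3, CDKN1A, GADD45A, CHAC1 and ASNS. ATF3 went from 2.41 to 26.1 FPKM, CDKN1A from 7.53 to 36.7, GADD45A from 5.56 to 22.0 and CHAC1 from 28.6 to 94.4. In shHNRNPU, where 8.32% of all genes rose and 7.46% fell, only ATF3 passed among the 11, at 7.52 FPKM. The median there was 0.07. ATF3 encodes a stress-induced transcription factor, CDKN1A and GADD45A are known targets of p53, and CHAC1 and ASNS are known targets of ATF4, the transcription factor of the amino acid and unfolded protein responses. ATF4 itself, also on the list, had 393, 733 and 336 FPKM in control, shDIS3L2 and shHNRNPU, and its log2 ratio of 0.90 in shDIS3L2 did not pass. The list therefore holds genes that are also induced by stress, and its part in the levels of the hosts was not tested.

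Of 15 NMD factors, 0 passed in shDIS3L2 against control, where 8.95% of all genes rose and 7.58% fell. Their median log2 ratio there was 0.19. The most abundant, RBM8A of the exon junction complex, had log2 ratios of 0.62 and 0.66 in shDIS3L2 and shHNRNPU. SMG5, which acts in a late step of NMD, had 46.7, 85.1 and 28.6 FPKM in control, shDIS3L2 and shHNRNPU, and fell between the knockdowns only, with a log2 ratio of -1.54. EIF4A3, the helicase of the exon junction complex, had 87.2, 77.0 and 159 FPKM and rose between the knockdowns, with a log2 ratio of 1.04.

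**Figure D4:**
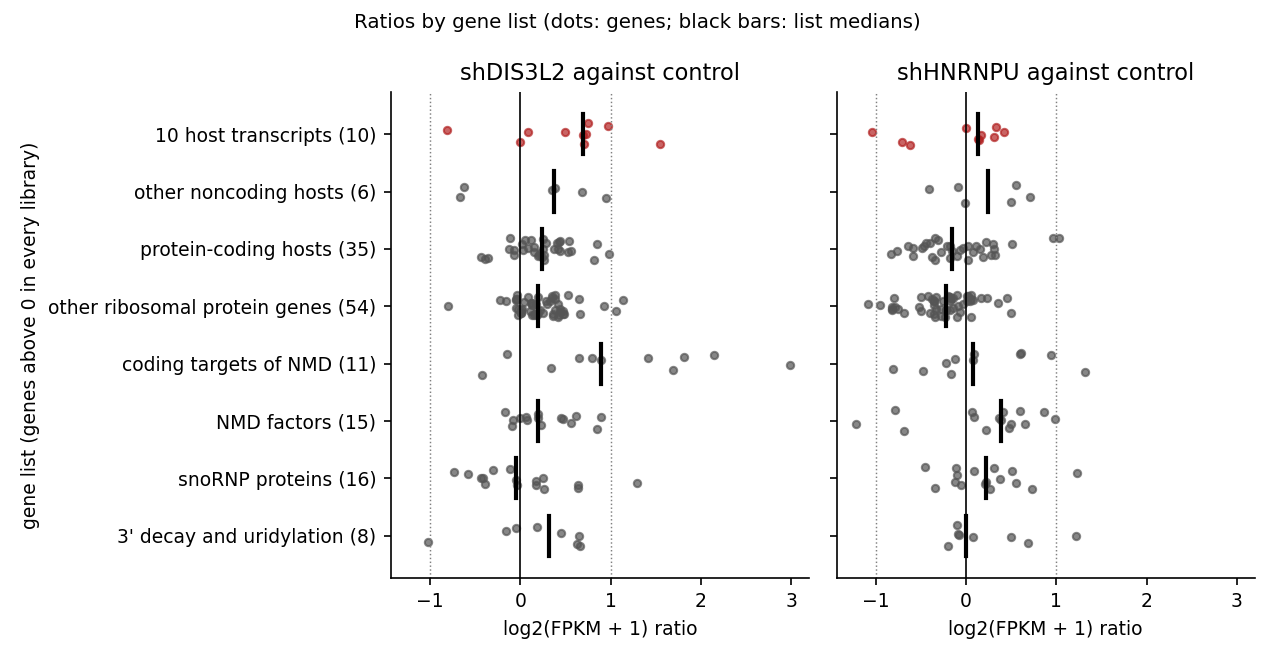
Log2(FPKM + 1) ratios to control in shDIS3L2 (left) and shHNRNPU (right) for the genes above 0 in every library of each list, 1 dot per gene, with list medians as black bars and dotted lines at 1 and -1. In shDIS3L2 the medians are 0.70 for the 10 host transcripts, 0.24 for protein-coding hosts, 0.19 for other ribosomal protein genes and 0.90 for coding targets of NMD.

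The genes whose pair of ratios was most like the medians of the 10 hosts (0.70 and 0.14) were looked for among 4912 single-name genes of at least 10 FPKM. The 5 nearest by Euclidean distance over these 2 ratios were TTLL4, UBE2V2, PTTG1, MAP7D1 and MGME1, at distances of 0.00928 to 0.0347. PTTG1, which encodes securin, had 143, 230 and 159 FPKM in control, shDIS3L2 and shHNRNPU. UBE2V2 encodes a ubiquitin-conjugating enzyme variant, and MGME1 a mitochondrial exonuclease.

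Under other scalings the direction of some hosts changed. With libraries rescaled by the median of ratios, log2 ratios above 0 went from 8 to 7 of the 10 in shDIS3L2 and from 6 to 4 in shHNRNPU. Rescaled to a common sum, they went to 6 and 0, while the median of all genes shifted to -0.48 and -0.66 and that of the hosts to 0.04 and -0.76. Relative to the all-gene median of the same scaling, 8, 7 and 7 of the 10 were higher in shDIS3L2 with FPKM as deposited, by median of ratios and by the sum. In shHNRNPU these counts were 6, 4 and 3.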

How the data were processed

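The authors deposited FPKM per gene, each with interval bounds and a status flag. The submitters' processing notes name TopHat2 2.0.12, Cufflinks 2.2.1 and hg19, with options and annotation not given. The level of the bounds, which no header states, was taken as 95%. No fragment counts are listed, so precision is given by the bounds, which for the 10 hosts reach 3.99% to 20.6% of the FPKM to either side. Locus starts were read as counted from 0.

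Names were split at commas and matched across libraries (55827 names), keeping the locus with the highest mean FPKM, and 11787 genes with a mean of at least 1 were compared, loci with several names counted once. Ratios are of log2(FPKM + 1), which understates changes of low genes. A gene was said to rise or fall at a ratio of 1 or more, or -1 or less, with bounds apart and an OK status. The script that applies the rule was tested on simulated data, which says nothing of the spread between cultures. A gene at 0 is called listed at 0, and no fold is given. Besides the 10 hosts, up to 4 genes per list past the rule were named, or the 2 most abundant, with the loci within 5000 bases of a host and the 5 most alike genes. Python 3.11.15 and pandas 2.3.3 were used. The members and the gene lists were chosen with earlier results of these data known. A result on the NMD factors in shHNRNPU is not reported here.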

Additional observations from a re-analysis of the deposited data

How the results depend on the processing

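Each group is 1 library, so leaving out a replicate was not possible. No paired analysis was possible because each group has only 1 library. The log2 ratios of the 10 hosts (30 over the 3 comparisons) moved by less than their intervals with pseudocounts of 0.1 and 5, with no filter on low values, with a filter of 5 FPKM and with summed loci. By median of ratios 28 of 30 did so, and 3 uncalled ratios changed sign. Rescaled to a common sum, 4 of 30 did so and 10 changed sign. A single locus of 153 bases holds 54.0%, 68.7% and 72.5% of all FPKM in control, shDIS3L2 and shHNRNPU, which sets that scaling.

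Counts of hosts past the rule moved as follows. In shDIS3L2 against control, 0 rose and 1 fell rescaled to a common sum, 6 rose and 1 fell with the rule at a log2 ratio of 0.5, and 0 rose without the 2 hosts merged with a snoRNA name. In shHNRNPU against control, 0 fell with a pseudocount of 5, and 3 fell both rescaled to a common sum and with the rule at 0.5. Between the knockdowns 7 fell with the rule at 0.5 and 1 fell without the merged hosts.

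The percent of all genes past the rule, higher and lower, moved too. With no filter it was 2.2 and 1.86 (shDIS3L2), 2.06 and 1.85 (shHNRNPU), and 2.48 and 2.55 (between the knockdowns), since 52676 genes are then counted, most of them near 0. With a pseudocount of 5 it was 4.7 and 4.33, 4 and 4.6, and 5.31 and 6.15. Rescaled to a common sum it was 2.8 and 20, 2.35 and 27.8, and 5.15 for higher between the knockdowns. With the rule at 0.5 it was 21.9 and 17.3, 23 and 15.8, and 23 and 20.8. The cause of the other moves was not tested.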

Other observations

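SNHG9, a noncoding host next to RPS2, was listed at 0 FPKM in control, at 61.4 in shDIS3L2 and at 10.9 in shHNRNPU, and so has no fold against control. SNHG11 had 75.2, 121 and 56.2 FPKM in the same order, and fell in shHNRNPU against shDIS3L2 with a log2 ratio of -1.10. Protein-coding hosts also fell between the knockdowns in 4 of 35 cases, a share near the 10.5% of all genes that fell there: RPS12 (log2 ratio -1.20), TPT1 (-1.08), RPS20 (-1.05) and RPL23 (-1.02). By intervals, 21 of the 35 lay below and 5 above there, beside 28.4% and 31.8% of all genes. For the 54 other ribosomal protein genes these counts were 41 and 3.

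The proteins that package snoRNAs were measured as well. Of 16 snoRNP core and assembly genes, 1 rose in each knockdown and 0 fell, against 8.95% and 8.32% of all genes that rose in shDIS3L2 and shHNRNPU. GAR1, a core protein of H/ACA particles, had 29.8 FPKM in control, 74.1 in shDIS3L2 and 50.2 in shHNRNPU, and its log2 ratio of 1.29 passed in shDIS3L2. ZNHIT6, an assembly factor of C/D particles, had 8.58, 8.30 and 21.5 FPKM, and its log2 ratio of 1.23 passed in shHNRNPU. The list medians were -0.05 and 0.22. Of 8 genes of 3′ decay and uridylation, DIS3L2 fell in its own knockdown, and DIS3, the nuclear exosome nuclease, rose in shHNRNPU from 2.42 to 6.96 FPKM.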
